A study of Homo sapiens with 12 samples.

Results

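The genes described here are 10 genes of the insulin-like growth factor (IGF) axis and of imprinted growth control, taken by gene symbol from the 60662 genes of the deposited table: IGF2, H19, CDKN1C, DLK1, MEG3, IGF1R, IGF2R, INSR, IGFBP2 and IGF2BP1. They were measured in NCI-H295R cells, a cortisol-secreting line that derives from a human adrenocortical carcinoma, by RNA-seq of ribosome-depleted total RNA. Confluent cultures were kept without serum for 12 h before a 24 h exposure to vehicle (VEH, 0.1% DMSO), to 30 µM CJ28 or to 30 µM metyrapone (MET), with 4 samples per group. CJ28 is a benzimidazolylurea derivative and MET an inhibitor of the last enzyme of cortisol synthesis. In the study, both lowered the cortisol measured in the medium of these cultures. All samples come from a single line, and the p-values below speak only of the spread between its cultures.

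IGF2 is a fetal growth factor that signals mainly through the tyrosine kinase receptor IGF1R and, in part, through the insulin receptor INSR, while IGF2R removes IGF2 by carrying it to the lysosome. IGFBP proteins hold IGFs outside the cell, and IGF2BP1 is an RNA-binding protein that holds IGF2 and other mRNAs inside it. IGF2 and H19 share an imprinted domain on chromosome 11p15, in which IGF2 is normally read from the paternal and H19 from the maternal copy, and CDKN1C, a cyclin-dependent kinase inhibitor, lies in the neighbouring domain. DLK1, a membrane protein of fetal adrenal and other progenitor cells, and the long non-coding RNA MEG3 form a like pair on 14q32. High IGF2 with low H19 and CDKN1C is a hallmark of adrenocortical carcinoma.

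In CJ28, IGFBP2 and IGF1R fell to less than 50% of their VEH level in unscaled TPM, INSR fell by a smaller amount and MEG3 rose. After the median-of-ratios scaling described below, the log2 fold change of IGF1R was -0.96, a fall to slightly more than 50%. In MET, by contrast, none of the 10 genes passed the test. Values are TPM, which give each gene's share of all transcripts of a library after correction for length and sum to the same total in each library, so that levels of different genes can be set side by side. Log2 fold changes are on the scale of log2(TPM + 0.1), which understates the change of genes with low TPM. Genes with at least 0.5 TPM in at least 4 of the 12 samples were tested with limma, and 8 of the 10 passed this filter. H19 and CDKN1C did not, and only their levels are given. Of the 8 genes, 4 had an adjusted p under 0.05 for CJ28 against VEH, 1 higher and 3 lower, in a comparison where 57.0% of all 16815 tested genes did (19.9% higher and 37.1% lower). That share is near the background, so the count says nothing particular about these genes.

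The tested genes as a whole shifted, with a median log2 fold change of -0.13 for CJ28 against VEH. Nuclear protein-coding genes held 24.3% to 24.8% of TPM in the VEH samples and 21.3% to 21.4% in the CJ28 samples. The part of this change of share in the shift was not tested. After median-of-ratios scaling, which sets that median near 0 (0.014), 29.3% of genes were higher and 26.3% lower, 55.6% in all, and 5 of the 8 genes were called, 2 higher and 3 lower. The scaled value is given beside each of the 8 genes whose call or direction it touches, and not for every gene of the further lists. The table keeps no read numbers, so no counting error can be given. Each sample listed between 29463 and 31016 genes above 0. Adrenocortical identity was checked with 8 markers, among them NR5A1, STAR and CYP11A1, which summed to 283 to 293 TPM in VEH, 281 to 296 in MET and 117 to 124 in CJ28. All 8 were lower in CJ28 (adjusted p under 0.05 in limma), where 37.1% of all tested genes were lower. Of these markers, HSD3B2 passed the filter only through VEH and MET samples and MC2R mainly through them. The calls of HSD3B2 and MC2R are thus no independent sign of a fall. Since the samples are bulk RNA, fewer cells with a transcript and less of it per cell cannot be told apart. Of 11 markers of leukocytes, endothelium, fibroblasts and chromaffin cells, 2 reached 0.5 TPM in any VEH sample and 1 in any CJ28 sample, and their sum was 6.42 to 7.62 TPM in VEH and 4.64 to 5.75 in CJ28, of which most was CHGB. PTPRC and PECAM1, which mark leukocytes and endothelium, lay at or near 0. Of the fibroblast markers LUM was near 0, but COL1A1 had 0.648 ± 0.256 TPM in VEH and 0.155 ± 0.165 with CJ28, with overlapping samples, and COL1A2 had 0.185 ± 0.0526 and 0.0225 ± 0.0263 TPM, without overlap. Neither passed the filter. The part of such cells in the results was not tested.

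The windows around the start sites of the 4 genes that moved in CJ28 are shown to give the regulatory sequence next to each change. They are RefSeq sequences on GRCh38.p14, 300 bases long, of which 250 precede the start, written 5′ to 3′ on the strand of the gene. Where the RefSeq table gave several starts, the one nearest to the GENCODE canonical start was taken. For MEG3 all 3 RefSeq starts lie close together and 46698 bases or more downstream of the canonical start, and the first is shown. Windows were read for H19, IGF2R and these 4 genes, and none for IGF2, CDKN1C, DLK1 and IGF2BP1.

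The first 3 windows belong to genes that fell, and capitals mark GGGCGG, the GC box bound by SP factors, on either strand. They lie at chr2:216633170-216633469 (plus strand), chr15:98648289-98648588 (plus strand) and chr19:7294365-7294664 (minus strand).
IGFBP2: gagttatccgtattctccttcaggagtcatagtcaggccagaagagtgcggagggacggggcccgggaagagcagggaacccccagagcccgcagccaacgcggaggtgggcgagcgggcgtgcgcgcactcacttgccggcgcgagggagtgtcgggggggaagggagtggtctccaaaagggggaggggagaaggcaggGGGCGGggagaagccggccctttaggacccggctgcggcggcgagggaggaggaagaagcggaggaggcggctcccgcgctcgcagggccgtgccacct
IGF1R: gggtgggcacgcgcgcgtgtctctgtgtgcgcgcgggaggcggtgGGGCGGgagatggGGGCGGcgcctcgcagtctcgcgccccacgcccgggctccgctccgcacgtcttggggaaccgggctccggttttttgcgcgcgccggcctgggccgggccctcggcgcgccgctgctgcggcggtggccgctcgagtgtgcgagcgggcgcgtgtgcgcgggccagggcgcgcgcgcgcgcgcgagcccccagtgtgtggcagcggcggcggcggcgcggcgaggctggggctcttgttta
INSR: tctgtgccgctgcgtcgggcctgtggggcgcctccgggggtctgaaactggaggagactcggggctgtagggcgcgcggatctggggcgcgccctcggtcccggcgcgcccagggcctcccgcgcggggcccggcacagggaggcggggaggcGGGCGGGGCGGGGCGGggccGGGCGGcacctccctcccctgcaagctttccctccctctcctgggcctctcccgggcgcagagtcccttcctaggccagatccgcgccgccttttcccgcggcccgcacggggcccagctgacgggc
The window of MEG3, the gene that rose, lies at chr14:100825858-100826157 (plus strand), and capitals mark TGACGTCA, the element bound by cAMP-responsive factors.
MEG3: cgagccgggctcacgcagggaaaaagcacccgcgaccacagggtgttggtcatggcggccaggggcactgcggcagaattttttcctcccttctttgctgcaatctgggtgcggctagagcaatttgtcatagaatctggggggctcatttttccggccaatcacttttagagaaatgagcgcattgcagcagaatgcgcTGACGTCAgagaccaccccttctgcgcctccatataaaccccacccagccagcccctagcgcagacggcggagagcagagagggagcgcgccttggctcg
The GC box matched 1 time in the IGFBP2 window, 2 times in that of IGF1R and 4 times, in part overlapping, in that of INSR, against a match in 45.0% of all 35116 windows of the table. It matched 6 times in the window of IGF2R, a gene that did not pass the test. TGACGTCA was found in the MEG3 window and in 1.85% of all windows, and not in the other 5 windows read. TATAAA occurred 1 time in the MEG3 window (11.5% of all windows). GCGTG, the core bound by the aryl hydrocarbon receptor, matched 4 times in the window of IGF1R and 1 time each in those of IGFBP2 and MEG3, against 36.5% of all windows. CACGTG occurred only in the IGF2R window among the 6 read, with 3 matches (7.26% of all windows), and TGTTTAC, a FOXO site, in none of them (3.42%). Both strands were searched, matches of different motifs may overlap, and a match is a run of letters and not a shown binding site.

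IGF2 itself (ENSG00000167244.21, chromosome 11, 2129112 to 2141238 on GRCh38, minus strand) was among the abundant mRNAs of the line, with a rank by mean TPM of 408 among 19944 nuclear protein-coding genes for VEH, 426 for CJ28 and 465 for MET. It held 93.1, 109, 62.5 and 96.7 TPM in VEH-1 to VEH-4, 69.96, 75.4, 56.1 and 86.5 in CJ28-1 to CJ28-4 and 76.9, 75.00, 77.9 and 91.1 in MET-1 to MET-4. The groups overlapped, because VEH-3 lay far below the other VEH samples and below every CJ28 sample but CJ28-3. Mean TPM was 90.2 ± 19.7 (SD, with n = 4 in each group throughout) in VEH and 71.97 ± 12.6 in CJ28, which gave log2 -0.31 (95% interval -0.66 to 0.04, adjusted p = 0.114 in limma). Of 21 alternatives of processing or sample choice, 3 called IGF2 lower. Leaving out 1 sample at a time moved the IGF2 value between -0.48 and -0.20, with adjusted p-values up to 0.307 in limma. Among these fits only the one without VEH-3, which drops the lowest VEH value, was called (-0.48, adjusted p = 0.00637 in limma). Without both VEH-3 and CJ28-3, a setting chosen after the data were seen, the log2 fold change of IGF2 was -0.37 (adjusted p = 0.00785 in limma). After median-of-ratios scaling it was -0.16 (adjusted p = 0.375 in limma). The mean in MET was 80.2 ± 7.36, a log2 fold change of -0.14 with an interval of -0.49 to 0.20.

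H19 (ENSG00000130600.19, chromosome 11, 1995176 to 2001470, minus strand), a long non-coding RNA, lies 127641 bases from IGF2 and was nearly silent beside it. It reached 0.30, 0.38, 0.54 and 0.42 TPM in VEH, 0.36, 0.50, 0.30 and 0.26 in CJ28 and 0.24, 0.35, 0.31 and 0.34 in MET, in replicate order. All 3 groups overlapped, and only VEH-3 and CJ28-2 reached 0.5 TPM. The log2 ratio of IGF2 to H19 within a sample, with 0.1 added to both, was 7.46 ± 0.584 in VEH, 7.32 ± 0.411 in CJ28 and 7.62 ± 0.188 in MET. It did not differ beyond the spread for CJ28 (p = 0.714 by a two-sided exact permutation test) or MET (p = 0.83 by the same exact permutation test), where 4 against 4 samples cannot give less than 0.0286.

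CDKN1C (ENSG00000129757.13, chromosome 11, 2883213 to 2885773, minus strand) encodes the cell cycle inhibitor p57 and was the lowest of the 10 genes. Its TPM was 0.0800 to 0.220 in VEH, 0.0400 to 0.130 in CJ28 and 0.0700 to 0.190 in MET, with means of 0.14 ± 0.0583, 0.10 ± 0.0408 and 0.12 ± 0.0510. The 3 ranges overlap at a level where neither treatment could be compared. The 11p15 domains of these cells thus showed a high IGF2 level with H19 and CDKN1C at 0.540 TPM or less in every sample, with and without either compound.

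**Figure D1:**
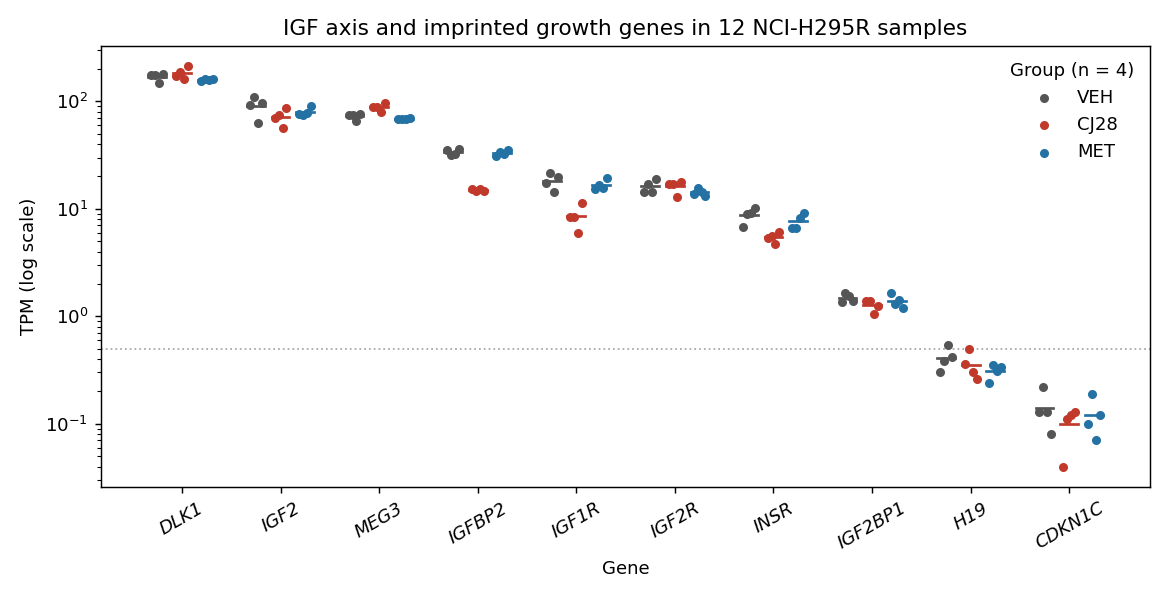
TPM of the 10 genes on a log axis in the 12 samples, with 1 point per sample, a bar at the mean of each group of 4, and a dotted line at the 0.5 TPM of the filter. CJ28 samples of IGFBP2, IGF1R and INSR lie below all VEH and MET samples, those of MEG3 above them, and H19 and CDKN1C stay near or below 0.5 TPM in every group.

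DLK1 (ENSG00000185559.16, chromosome 14, 100725705 to 100738224, plus strand) was the most abundant of the 10 genes in each group. It had 175, 175, 149 and 178 TPM in VEH-1 to VEH-4, 173, 186, 163 and 213 in CJ28-1 to CJ28-4, and 154, 160, 157 and 162 in MET-1 to MET-4. CJ28 and VEH overlapped, but every CJ28 sample lay above every MET sample. Between CJ28 and VEH the log2 fold change of DLK1 was 0.11 (interval -0.05 to 0.28, adjusted p = 0.225 in limma), and 0.27 after median-of-ratios scaling with an adjusted p of 0.00453 in limma, so that the call for DLK1 rests on the scaling. Directly against MET it was 0.21 (adjusted p = 0.0345 in limma), a call that was lost when CJ28-2, CJ28-4, MET-1, MET-2 or MET-3 was left out, with adjusted p-values of DLK1 up to 0.0918 in limma.

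MEG3 (ENSG00000214548.18, chromosome 14, 100779410 to 100861031, plus strand), a long non-coding RNA with growth-restraining activity, begins 41185 bases beyond DLK1 on the same strand. It ranked 12 of 16892 long non-coding RNAs in VEH and 9 in CJ28. Its TPM was 74.3, 75.4, 65.3 and 75.8 in VEH, 89.4, 89.2, 79.95 and 96.2 in CJ28 and 68.8, 68.1, 68.6 and 70.7 in MET. Every CJ28 sample of MEG3 was above every VEH and MET sample, in a comparison of CJ28 with VEH where the groups did not overlap for 50.3% of all tested genes. The mean rose from 72.7 ± 4.99 to 88.7 ± 6.67, a 1.22-fold rise or 0.29 ± 0.058 (standard error) on the log2 scale, with an adjusted p of 0.001 in limma, and 0.44 after scaling. In MET the log2 fold change of MEG3 was -0.07 (interval -0.20 to 0.05).

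The ratio of DLK1 to MEG3 within a sample was lower in the CJ28 samples than in the VEH samples, a difference that the adjusted test could not decide. On the log2 scale it was 1.22 ± 0.0199 in VEH, 1.05 ± 0.0826 in CJ28 and 1.20 ± 0.0290 in MET. The 4 CJ28 samples, at 0.949 to 1.15, lay below the lowest VEH sample at 1.19. The difference was -0.17 (p = 0.0286 by exact permutation, which is the least possible, and 0.229 after Benjamini-Hochberg adjustment over the 8 tests of ratios). A single ratio at that least p cannot pass after adjustment over 8 tests, whatever its size, so no conclusion is drawn from the adjusted value. For MET the difference was -0.02 (exact permutation test, p = 0.286).

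The 3 tested genes beyond MEG3 on 14q32 fell, and for MEG8 and MEG9 the call rests on the scaling. Of 7 further genes of the region, 5 were tested, and in CJ28 1 rose and 3 fell, with a median log2 fold change of -0.26, where 57.0% of all tested genes were called (19.9% higher and 37.1% lower). After median-of-ratios scaling 1 was higher and 2 lower. RTL1, a retrotransposon-derived gene that is normally read from the paternal copy like DLK1, fell 2.13-fold from 2.31 ± 0.176 to 1.09 ± 0.145 TPM (log2 fold change -1.03, adjusted p = 1.6e-06 in limma). MEG8, a long non-coding RNA that starts 33738 bases beyond MEG3, fell from 61.2 ± 5.26 to 51.8 ± 4.00 TPM (log2 fold change -0.24, adjusted p = 0.00802 in limma), but the fall of MEG8 was -0.09 after scaling with an adjusted p of 0.285 in limma. MEG9, still further along, fell from 3.28 ± 0.274 to 2.31 ± 0.376 TPM, a call that was lost after scaling to the nuclear protein-coding total (adjusted p = 0.0602 in limma). WDR25, on the other side of DLK1, rose 1.46-fold from 1.64 ± 0.176 to 2.40 ± 0.181 TPM. RTL1 lies on the strand opposite to the long non-coding RNAs. The study made its libraries with a stranded kit. Whether the counting used strand is not given in the sources used here, so reads of antisense partners may be shared. In MET none of the 5 genes had an unadjusted p under 0.05 in limma, where 874 of all 16815 tested genes did.

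On 11p15, 6 of 16 neighbours were tested, with 1 gene higher and 3 lower in CJ28 and a median log2 fold change of -0.25, against 57.0% of all tested genes called. After median-of-ratios scaling 3 were higher and 3 lower, against 55.6% called. NAP1L4, a histone chaperone gene at the far edge of the CDKN1C domain, fell 1.89-fold from 26.4 ± 3.05 to 13.97 ± 0.914 TPM. CD81, which encodes a tetraspanin, fell from 15.8 ± 0.876 to 9.60 ± 0.504, and MRPL23, a mitochondrial ribosomal protein gene next to H19, from 14.9 ± 0.367 to 10.1 ± 0.401 TPM (adjusted p under 0.05 in limma for each). SLC22A18, a membrane transporter, had 0.28 ± 0.0616 TPM in VEH and 0.543 ± 0.0538 in CJ28 and passed the filter mainly through its CJ28 samples, so its call is no independent sign of a rise. INS-IGF2, the readthrough of insulin and IGF2, and INS were listed at 0 in every sample. IGF2-AS, which overlaps the start of IGF2 on the other strand, stayed at 0.350 TPM or less. KCNQ1OT1, the non-coding RNA of the CDKN1C domain, had 0.52 ± 0.06 TPM in VEH and 0.275 ± 0.0265 under CJ28, against 0.465 ± 0.0332 in MET, and did not pass the filter. MIR675 within H19, MIR483 within IGF2 and MIR770 within MEG3 were listed at 0 in every sample, as were all 3051 genes with a span under 100 bases, so these zeros say nothing of the miRNAs.

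**Figure D2:**
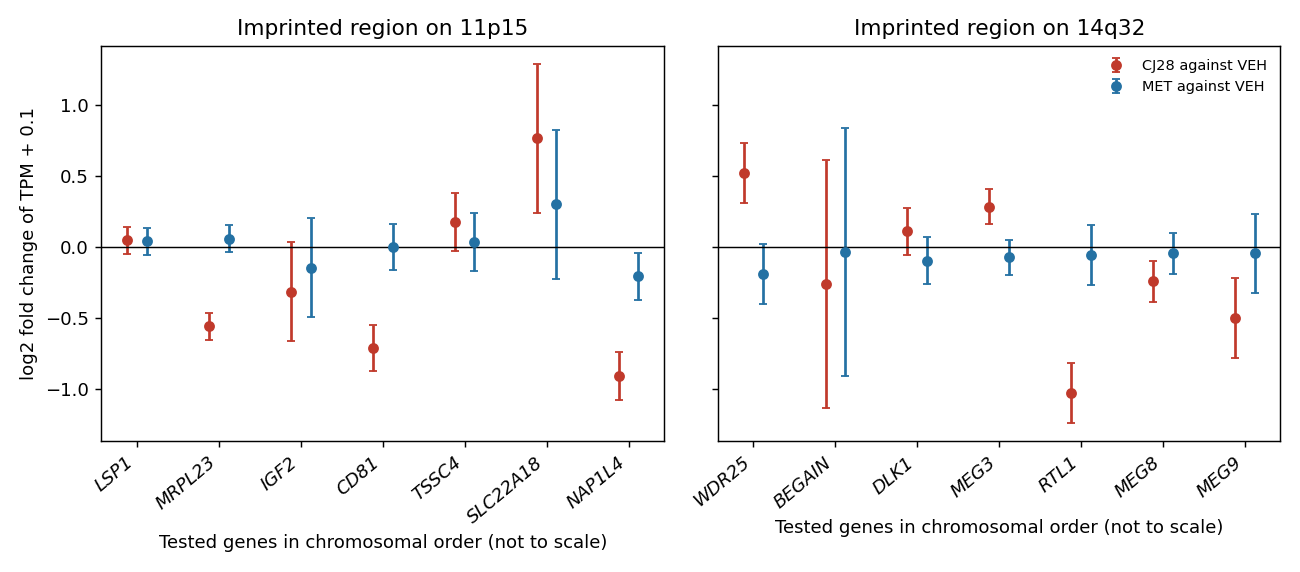
Log2 fold change against VEH (points, with 95% intervals) of the tested genes of the imprinted regions on 11p15 and 14q32, in chromosomal order, for CJ28 in red and MET in blue. On 14q32, MEG3 lies above 0 in CJ28 and RTL1, MEG8 and MEG9 below it, and on 11p15 NAP1L4, CD81 and MRPL23 lie below 0.

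Among the receptors, IGF1R (ENSG00000140443.15, chromosome 15, 98648539 to 98964530, plus strand), the main signalling receptor for IGFs, changed most. It had 17.2, 21.3, 14.5 and 19.8 TPM in VEH, 8.45, 8.32, 5.92 and 11.4 in CJ28, and 15.3, 16.7, 15.5 and 19.2 in MET. The highest CJ28 sample, CJ28-4, lay below the lowest VEH sample, VEH-3. The mean fell 2.13-fold from 18.2 ± 3.02 to 8.53 ± 2.26, or -1.11 ± 0.17 (standard error) on the log2 scale, with an adjusted p of 1.3e-04 in limma, and -0.96 after scaling. Its interval for MET, -0.49 to 0.25, allows changes of either sign.

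INSR (ENSG00000171105.14, chromosome 19, 7112255 to 7294414, minus strand), which binds insulin and, in one splice form, IGF2, followed with a smaller fall. It had 6.79, 8.96, 9.11 and 10.2 TPM in VEH, 5.31, 5.62, 4.71 and 6.07 in CJ28 and 6.56, 6.69, 8.22 and 9.10 in MET. CJ28 samples of INSR lay below all others, by a narrow gap to MET-1 and VEH-1. The mean went from 8.76 ± 1.42 to 5.43 ± 0.571, 1.61-fold lower, or -0.67 ± 0.13 (standard error) on the log2 scale, with an adjusted p of 9.4e-04 in limma, and -0.52 after scaling. The log2 ratio of IGF1R to INSR was 1.05 ± 0.305 in VEH, 0.611 ± 0.240 in CJ28 and 1.12 ± 0.172 in MET. The lower ratio with CJ28 did not exceed the spread (difference -0.44, exact permutation test, p = 0.0857, 0.305 after adjustment over 8).

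IGF2R (ENSG00000197081.14, chromosome 6, 159969099 to 160113507, plus strand), which clears IGF2, did not pass the test in either treatment. It had 14.3, 16.97, 14.5 and 19.1 TPM in VEH, 17.1, 17.1, 12.9 and 17.7 in CJ28 and 13.9, 15.7, 14.3 and 13.2 in MET. All 3 groups overlapped. The log2 fold change for CJ28 was -0.0032 with an interval of -0.25 to 0.24, and 0.15 after scaling (adjusted p = 0.218 in limma). The log2 ratio of IGF2 to IGF2R was 2.45 ± 0.284 in VEH and 2.14 ± 0.106 in CJ28, a difference of -0.31 that did not exceed the spread (exact permutation test, p = 0.114), and 2.48 ± 0.218 in MET.

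IGFBP2 (ENSG00000115457.10, chromosome 2, 216632828 to 216664436, plus strand), a secreted carrier of IGF2, had the smallest adjusted p of the 8 tested genes. It had 35.6, 31.5, 32.4 and 36.3 TPM in VEH, 15.3, 14.6, 15.4 and 14.6 in CJ28 and 31.02, 33.7, 32.3 and 35.2 in MET. The 4 CJ28 samples differed by less than 1 TPM and lay far below all others, while VEH and MET covered the same range. The mean fell 2.27-fold from 33.9 ± 2.38 to 14.96 ± 0.458, or -1.17 ± 0.054 (standard error) on the log2 scale, with an adjusted p of 2.0e-09 in limma, and -1.02 after scaling. For MET the log2 fold change of IGFBP2 was -0.04 (interval -0.15 to 0.08), which bounds any change there to well under that seen in CJ28.

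IGF2BP1 (ENSG00000159217.10, chromosome 17, 48997385 to 49056145, plus strand) was low in every group. Its TPM was 1.35 to 1.63 in VEH, 1.04 to 1.39 in CJ28 and 1.20 to 1.63 in MET. The log2 fold change of IGF2BP1 for CJ28 was -0.21 (interval -0.48 to 0.05, adjusted p = 0.16 in limma). Its paralog IGF2BP3 was the more abundant form, at 11.4 ± 0.57 TPM in VEH and 8.80 ± 1.32 in CJ28 (log2 fold change -0.38, adjusted p = 0.00243 in limma), a call that was lost when values were scaled to the nuclear protein-coding total (adjusted p = 0.0965 in limma), and IGF2BP2 was not tested. HMGA2 and HMGA1, chromatin proteins of fetal tissue and tumours whose mRNAs are bound by this family, rose from 0.908 ± 0.0881 to 1.33 ± 0.197 TPM and from 1.92 ± 0.0719 to 2.32 ± 0.235 TPM, but the call for HMGA1 was lost without CJ28-4 (adjusted p = 0.0591 in limma).

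**Figure D3:**
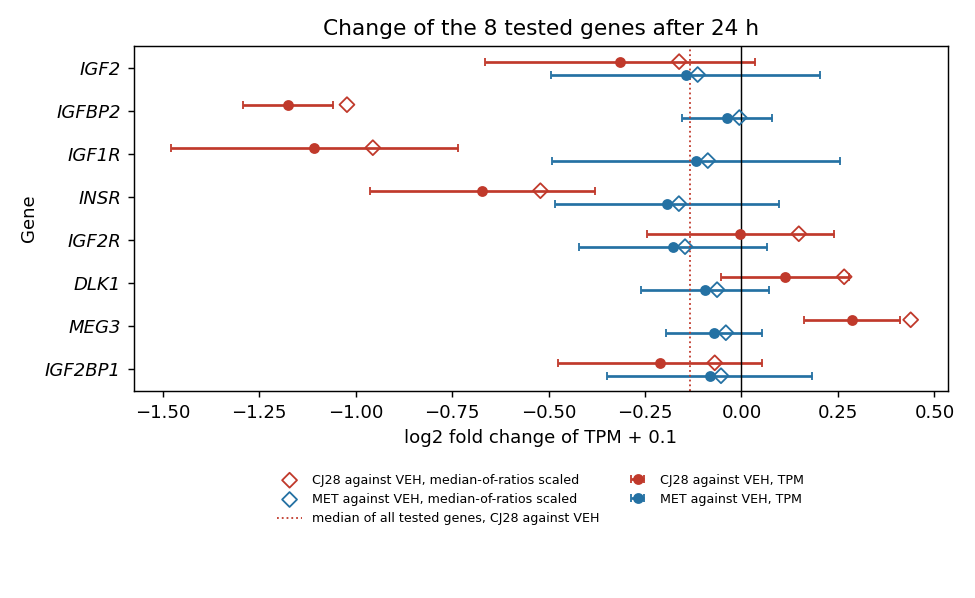
Log2 fold change against VEH with 95% intervals for the 8 tested genes, CJ28 in red and MET in blue, filled circles for TPM and open diamonds after median-of-ratios scaling, with a dotted line at the median of all tested genes for CJ28 (-0.13). The CJ28 intervals of IGFBP2, IGF1R, INSR and MEG3 exclude 0, DLK1 moves away from 0 with scaling, and all MET intervals include 0.

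In MET against VEH, limma called 0 of the 8 genes, where 0.00595% of all tested genes were called. At an unadjusted p under 0.05 limma gave 0 of the 8, against 874 of all 16815 tested genes. Neither count says anything particular about these genes. All 8 overlapped with VEH, as did all but 2.81% of tested genes. All 8 log2 fold changes were negative, from -0.19 (INSR) to -0.04 (IGFBP2), where the median of all tested genes was -0.026. Comparisons with the same VEH samples are not independent of each other. Directly between CJ28 and MET, at the same concentration and time, 5 of the 8 genes were called, 2 higher and 3 lower in CJ28, against 55.5% of all genes (20.9% higher and 34.6% lower). The same 5 genes showed no overlap between CJ28 and MET, as did 50.2% of all tested genes. The log2 fold changes were -1.14 for IGFBP2, -0.99 for IGF1R, -0.48 for INSR, 0.36 for MEG3 and 0.21 for DLK1, and IGF2R, at 0.17 (adjusted p = 0.206 in limma), was called only after scaling, with 0.29 and an adjusted p of 0.0218 in limma, where 54.8% of all genes were called (28.7% higher and 26.1% lower). The compounds are not structural analogs, so these values compare treatments and not a change in structure.

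Per length, the order of the mean levels in VEH was DLK1, IGF2, MEG3, IGFBP2, IGF1R, IGF2R, INSR, IGF2BP1, H19 and CDKN1C. IGF2 and MEG3 overlapped in VEH, as did IGF1R and IGF2R, and the other neighbours in this order did not. In CJ28, MEG3 stood above IGF2 in mean level and IGF2R was level with IGFBP2 and above IGF1R. Every CJ28 sample of IGF2R lay above every CJ28 sample of IGF1R, and all but CJ28-3 lay above every CJ28 sample of IGFBP2. Libraries deviated together for several of these genes. VEH-3 was the lowest VEH sample for 4 of the 8 tested genes (IGF2, DLK1, MEG3 and IGF1R) and CJ28-3 the lowest CJ28 sample for 7 of 8, all but IGFBP2, while CJ28-4 was the highest for 6. Their median-of-ratios factors, 1.02 and 0.924, were also the lowest of their groups. Without VEH-3 and CJ28-3 the 4 genes called for CJ28 were called again, and IGF2 was added.

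The genes whose pattern over the 12 samples was most like that of IGF2, by Pearson's r of log2(TPM + 0.1) among 13303 genes with a mean of at least 1 TPM, were SEC16A (0.978), POM121 (0.963), FAM193A (0.953), TRRAP (0.951) and SRRM2 (0.949). In all 5, as in IGF2, VEH-3 was the lowest VEH sample and CJ28-3 the lowest CJ28 sample, so the likeness is one of libraries as well as of groups. For H19 the closest were SLC12A4 (0.834), ARL14EP (0.827), MROH8 (0.762), ACVR2A (0.754) and FUBP3 (0.740), at a level of H19 where its own steps are coarse. These values are descriptions over samples that share libraries.

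Outside the cell, HTRA1, STC1 and IGFBP3 fell in CJ28. Of 15 other IGF genes 5 passed the filter, and in CJ28 0 rose, 4 fell and 1 did not pass the test, with a median log2 fold change of -1.05, where 37.1% of all tested genes were lower. The counts were the same after median-of-ratios scaling, and after scaling to the nuclear protein-coding total 1 was higher (IGFBP7, adjusted p = 0.0154 in limma) and 4 lower. HTRA1, a secreted serine protease that cuts IGFBPs, fell 3.40-fold from 9.72 ± 0.824 to 2.86 ± 0.184 TPM (log2 fold change -1.73, adjusted p = 3.2e-10 in limma). STC1, of the stanniocalcin family whose members inhibit IGFBP-cutting pappalysins, fell from 2.47 ± 0.145 to 1.07 ± 0.0550 TPM. IGFBP5 had 0.54 ± 0.127 TPM in VEH and 0.205 ± 0.0332 in CJ28, and it passed the filter only through VEH and MET samples. Its call, counted among the 4, is thus no independent sign of a fall, and its own log2 fold change of -1.05 sets the median. Among the genes that failed the filter, STC2 had 0.138 ± 0.0759 TPM in VEH and 0.328 ± 0.0624 in CJ28, without overlap. IGF1 and IGFBP6, also untested, had lower means in CJ28, with overlapping samples. IGFBP7, at 13.8 ± 1.01 TPM in VEH and 14.2 ± 1.42 in CJ28, did not pass the test. IGFBP2 was thus the most abundant IGFBP transcript in VEH, and IGFBP7 came close to it in CJ28.

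Inside the cell, genes of the pathway below the receptors moved in both directions. Of 30 genes, 29 were tested, and in CJ28 4 rose, 6 fell and 19 did not pass the test, with a median log2 fold change of -0.04, against 57.0% of all tested genes called (19.9% higher and 37.1% lower). PIK3R3, a regulatory subunit of the lipid kinase PI3K, fell 1.92-fold from 9.43 ± 0.357 to 4.90 ± 0.368 TPM (log2 fold change -0.93). The kinase genes AKT1 and AKT2 fell from 26.98 ± 1.08 to 17.6 ± 0.985 TPM and from 48.9 ± 1.78 to 32.8 ± 2.06 TPM, 1.54-fold and 1.49-fold lower. GRB14, an adaptor that inhibits the insulin receptor, rose 1.45-fold from 46.5 ± 2.01 to 67.4 ± 3.67 TPM (log2 fold change 0.54, adjusted p = 1.4e-06 in limma). Its relative GRB10, which is imprinted and has a like role, had 0.255 ± 0.186 TPM in VEH and 0.768 ± 0.144 in CJ28. GRB10 passed the filter mainly through CJ28, so its call, counted among the 4, is no independent sign of a rise. IRS2, the adaptor that links the receptors to PI3K, rose from 13.99 ± 1.46 to 16.9 ± 1.88 TPM (adjusted p = 0.0221 in limma), with overlapping samples, and its call was lost without CJ28-2, CJ28-4 or VEH-3, with adjusted p-values of IRS2 up to 0.0678 in limma. After median-of-ratios scaling 12 of these genes were higher and 5 lower, against 29.3% and 26.3% of all genes, so the count of higher and lower genes rests on the scaling, while PIK3R3, AKT1 and AKT2 stayed lower and GRB14 higher.

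Among 19 imprinted genes elsewhere in the genome, 18 were tested, and in CJ28 3 rose, 8 fell and 7 did not pass, with a median log2 fold change of -0.23, near the 57.0% called among all tested genes. After scaling 5 were higher and 7 lower, against 55.6% called. GRB10 belongs to this list as well and is counted in both, and here too its call is no independent sign of a rise. PEG10, a retrotransposon-derived growth gene, fell 2.42-fold from 169 ± 16.7 to 69.7 ± 2.06 TPM (log2 fold change -1.27, adjusted p = 3.0e-09 in limma). PLAGL1, a zinc-finger factor of an imprinted gene network that includes IGF2 and H19, fell 2.38-fold from 46.1 ± 3.10 to 19.4 ± 1.79 TPM, and HYMAI, the non-coding RNA of its locus, from 2.26 ± 0.124 to 0.705 ± 0.0592 TPM. Both share the locus and may share reads. ZDBF2, a zinc-finger gene of growth and feeding control, rose 1.72-fold from 4.85 ± 0.242 to 8.36 ± 0.384 TPM, and SNRPN, a splicing protein gene, from 30.6 ± 1.81 to 34.2 ± 0.501 TPM.

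**Figure D4:**
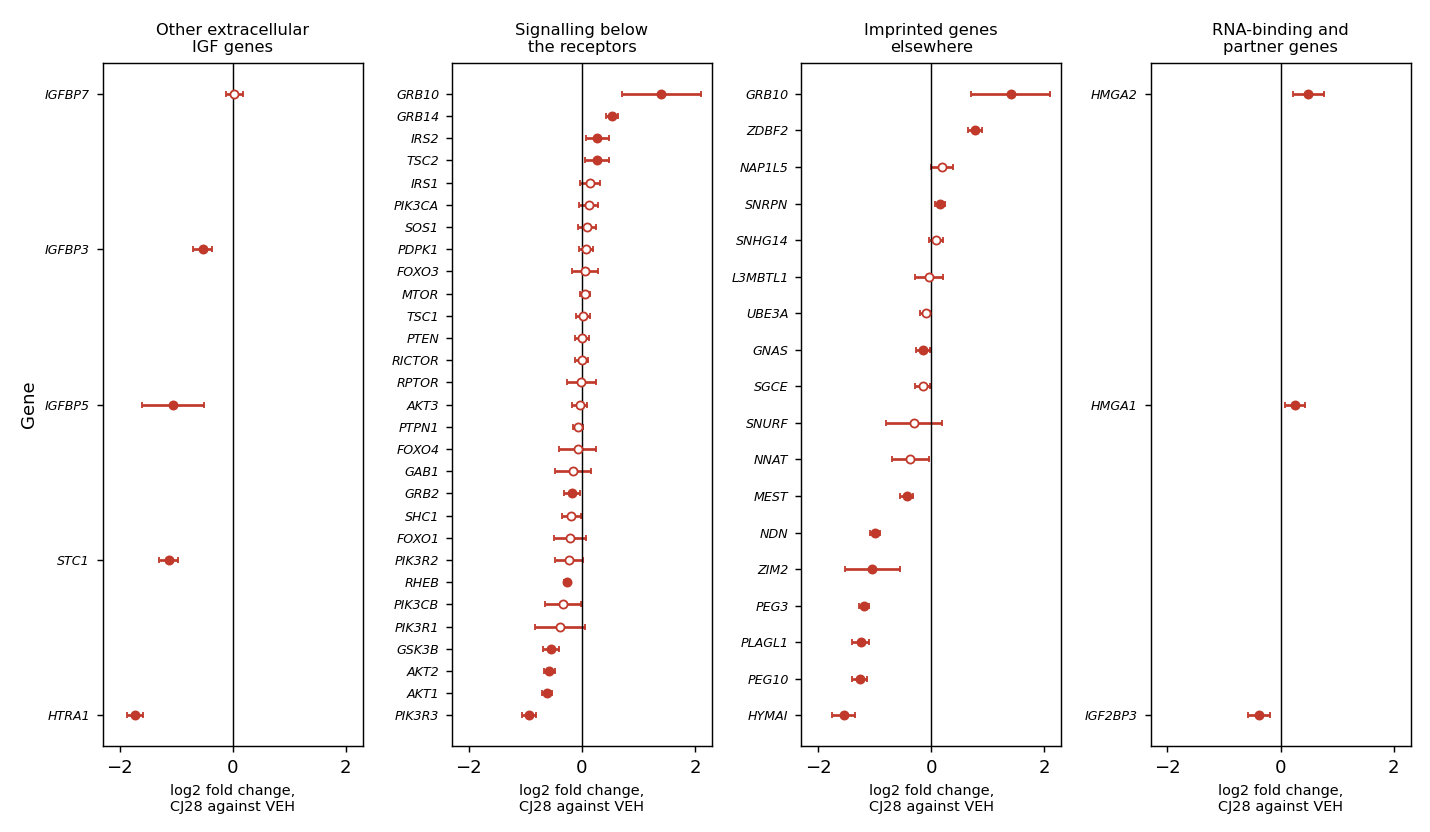
Log2 fold change for CJ28 against VEH with 95% intervals of the tested genes of 4 lists, filled where the adjusted p in limma was under 0.05. The extracellular IGF genes other than IGFBP7 lie below 0, while signalling and imprinted genes lie on both sides, from HYMAI (-1.55) to GRB10 (1.41). GRB10 passed the filter mainly through CJ28 samples and IGFBP5 only through VEH and MET samples.

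In MET, limma called 0 genes of these lists. At an unadjusted p under 0.05 it gave 1 gene, NAP1L4 on 11p15, against 874 of all 16815 tested genes. The lists and the 10 genes were chosen with earlier results of these data known, so their counts describe the genes and test nothing about the lists.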

How the data were processed

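RNA-seq of 12 samples of NCI-H295R cells, 4 per group, was deposited by the authors as a table of TPM per gene. Per the labels and the study's methods, reads were trimmed with Cutadapt 2.8, aligned with STAR 2.7.10b to GRCh38 and quantified with RSEM 1.3.3. Libraries were made with a stranded total RNA kit, but the annotation release and the strand setting of the counting are not given in the sources used here. TPM is a share of each library, so a rise in some transcripts lowers all others, and the table keeps no depth.

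Groups came from the sample labels. Values were taken as log2(TPM + 0.1). The 16815 genes with at least 0.5 TPM in at least 4 samples were fitted together over all 12 samples with limma 3.58.1 (lmFit, eBayes with a trend) in R 4.3.3, two-sided, with Benjamini-Hochberg adjustment over all tested genes and a threshold of 0.05. The fit was tested on simulated data. Single values and ratios were compared by two-sided exact permutation tests of 4 against 4 samples. The 10 genes and the lists were chosen with earlier results of these data known. Of each list, the called genes with the largest absolute changes in each direction were named, and other genes named beside them were chosen after their values were seen. Alternatives were other pseudocounts and filters, median-of-ratios scaling, scaling to the nuclear protein-coding total, a replicate block and leaving out each sample. Leaving out VEH-3 and CJ28-3 together was chosen after seeing the data. Promoter windows were RefSeq sequences on GRCh38.p14.

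Replicate numbers did not pair the samples: deviations of samples with the same number correlated at a mean r of 0.024 for CJ28 and VEH, against -0.0079 for other pairs.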

Additional observations from a re-analysis of the deposited data

Results flagged for a closer look

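In 8 of 129 groups of 4 samples examined for the named genes, 1 sample stood apart by Dixon's test, whose statistic is the gap to the nearest sample over the range of the group. Chance flags about 1 in 20 groups. VEH-3 stood apart as the lowest VEH sample of DLK1 (statistic 0.889) and of MEG3 (0.858). CJ28-3 was the low sample of IGF2R in CJ28 (0.868). STC1 in CJ28 gave 1.00, because the other 3 samples shared 1 value. AKT1 had a high sample in VEH at 28.6 TPM (0.838), and ZDBF2 a high sample in MET at 4.94 TPM (0.878). NAP1L4 had a low sample in MET at 21.4 TPM (0.990), and CYP17A1, a steroidogenic enzyme gene, a low sample in VEH at 47.3 TPM (0.876).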

How the results depend on the processing

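Of 1714 values of single genes under the alternatives, 1687 kept their side of the threshold, 45 of them with a changed sign while past it in neither setting, 9 passed the threshold newly, 18 no longer passed it and 0 called values reversed. The count of signalling genes called for CJ28 against VEH, 10 as reported, was 17 after median-of-ratios scaling and 18 after scaling to the nuclear protein-coding total, and on 14q32 the count went from 4 to 2 with the latter. The cause was not tested beyond the change of scale itself. Leaving out each sample gave 4 to 5 of the 10 genes called for CJ28 against VEH, 0 for MET against VEH and 4 to 6 for CJ28 against MET, and 8 to 11 signalling genes. The replicate block, fitted although the numbers do not pair the samples, raised the called genes from 4 to 5 by adding IGF2 (adjusted p = 0.0341 in limma) and the signalling genes from 10 to 11. With the block, the log2 ratio of DLK1 to MEG3 was again -0.17, with an exact p of 0.125, the smallest that 4 pairs allow. INSR in CJ28 against MET was not called after scaling to the nuclear protein-coding total (log2 fold change -0.29, adjusted p = 0.0823 in limma). TPM without read numbers limits what can be said of H19 and CDKN1C.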

Other observations

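Ligands other than IGF2 were barely present. IGF1, the postnatal ligand of IGF1R, did not pass the filter, with mean TPM of 0.330 (VEH), 0.120 (CJ28) and 0.290 (MET). LSP1, a leukocyte-specific protein gene by name that lies on the far side of MRPL23 from H19, was the most abundant of the 11p15 neighbours at 143 TPM in VEH and 148 in CJ28. In CJ28 against VEH, LSP1 was not called as reported (adjusted p = 0.382 in limma). After median-of-ratios scaling it was called higher (log2 fold change 0.20, adjusted p = 0.00197 in limma). TH, DIO3 and DIO3OS, at the borders of the imprinted regions, were listed at a mean of 0 in VEH and in CJ28. These genes were chosen after their values were seen.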
